A study of Mus musculus with 17 samples.

Results

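HOPS and CORVET are the protein complexes that hold endosomes and lysosomes together before they fuse, and 10 genes of these complexes and of the related CHEVI complex were examined here in distant MC38 tumors. The members were the rows of the deposited table whose gene name was Vps11, Vps16, Vps18, Vps33a, Vps39, Vps41, Vps8, Tgfbrap1, Vps33b or Vipas39, and all 10 were found among the 21931 genes listed. MC38 is a mouse colon cancer cell line, and its cells had been injected subcutaneously into both flanks of C57BL/6J mice that were 6 to 8 weeks old. In the cryoablation group (n = 8), 1 of the tumors was frozen with a probe on day 7 after implantation and the tumor of the other side was taken 5 days later. Group membership follows the sample labels, and the study's text gives the group sizes the other way round. The control group (n = 9) carried the same tumors, labelled WT for genotype like those of the cryoablation group, and was sampled at the same day without that treatment. Each sample is therefore a bulk tumor that was itself never frozen in the animal, and its RNA comes from tumor cells and host cells together. Cdx2, an intestinal transcription factor, had 0 counts in all 17 tumors, and the 10 epithelial and MC38 markers summed to 16.7 to 105 CPM (counts scaled to a common library size) in control tumors and to 10.4 to 236 CPM in cryoablation tumors.

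Fusion of late endosomes, autophagosomes and lysosomes needs a tether that bridges both membranes and helps the SNARE proteins to zip up. HOPS does this at late endosomes and lysosomes, where it works with the GTPase Rab7, and CORVET does it at early endosomes, where it works with Rab5. Both are built on the same core of Vps11, Vps16, Vps18 and Vps33a. Vps39 and Vps41 turn the core into HOPS, and Vps8 and Tgfbrap1 turn it into CORVET. Vps33a is a Sec1/Munc18 protein that holds SNAREs and sits on Vps16. Vps33b and Vipas39 are the paralogs of Vps33a and Vps16 and form CHEVI, which is known for its work in platelet alpha granules and in the sorting of apical membrane proteins.

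In the deposited table the core genes lay at chr9:44259046-44272967 (Vps11, minus strand), chr2:130266259-130286189 (Vps16, plus), chr2:119119221-119128934 (Vps18, plus) and chr5:123666722-123711101 (Vps33a, minus). The HOPS genes lay at chr2:120146942-120183618 (Vps39, minus) and chr13:18901456-19050981 (Vps41, plus), and the CORVET genes at chr16:21241868-21463430 (Vps8, plus) and chr1:43086360-43137797 (Tgfbrap1, minus). The CHEVI genes lay at chr7:79919397-79941502 (Vps33b, plus) and chr12:87285642-87313030 (Vipas39, minus). The submitters' processing notes name GRCm38, but 0 of the 10 members had the start and end of the GRCm38 annotation, so no build is given for these positions. Vps16 was the member that overlapped another listed gene: 363 bases were shared with Pced1a on the opposite strand, which had 125 to 557 counts per tumor. Whether the counting used strand is not given in the sources used here, so reads in that overlap cannot be told apart.

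RefSeq promoter windows (build GRCm38.p6, 250 bases before to 50 bases after the gene start) were matched by symbol for 7 members, and none were matched for Vps11, Vps39 and Vps33b. The upstream bases of Vps16 (chr2:130424070-130424319, plus strand), Vps33a (chr5:123573016-123573265, minus strand) and Vps18 (chr2:119288492-119288741, plus strand) are shown because Vps33a varied across the tumors in the opposite direction to the other 2, as described further on. Capitals mark the 6 letters CACGTG, which read the same on both strands and are the core of the E-box and CLEAR elements that MiT/TFE factors bind, or the 10 letters GTCACGTGAC around them.
Vps16: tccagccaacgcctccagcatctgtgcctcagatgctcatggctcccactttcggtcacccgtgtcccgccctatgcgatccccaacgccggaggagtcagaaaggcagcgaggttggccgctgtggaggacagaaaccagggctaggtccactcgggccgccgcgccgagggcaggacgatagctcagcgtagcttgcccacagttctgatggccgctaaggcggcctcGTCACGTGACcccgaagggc
Vps33a: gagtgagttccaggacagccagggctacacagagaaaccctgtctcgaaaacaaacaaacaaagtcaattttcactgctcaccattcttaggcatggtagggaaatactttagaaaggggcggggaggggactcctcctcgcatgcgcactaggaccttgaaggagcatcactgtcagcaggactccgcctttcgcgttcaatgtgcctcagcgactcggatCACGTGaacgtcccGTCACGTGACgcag
Vps18: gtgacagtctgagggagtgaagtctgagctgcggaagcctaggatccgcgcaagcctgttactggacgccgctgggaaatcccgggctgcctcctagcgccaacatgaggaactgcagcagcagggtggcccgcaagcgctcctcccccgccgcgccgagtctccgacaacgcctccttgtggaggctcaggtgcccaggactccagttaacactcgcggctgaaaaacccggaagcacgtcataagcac

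GTCACGTGAC stood 20 bases before the start in Vps16 and 14 bases before it in Vps33a, and 0.326% of the 32851 promoter windows searched held it. Vps33a had a further CACGTG 28 bases before the start. The shorter CACGTG, which occurred in 7.15% of all windows on either strand, was also found at the start of the downstream one of the 2 Tgfbrap1 entries. The windows of Vps18, Vps41, Vps8 and Vipas39 did not hold these letters. Such a match is a description of the letters only.

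Each tumor had between 13524899 and 17898672 counts in all, and the members had from 105 counts (Vps33b, cryoablation replicate 2) to 1595 counts (Vps16, control replicate 3). All 10 members passed the filter on low counts, with 13005 genes tested. Cryoablation replicates 2, 4 and 5 had the lowest 3 of the 17 normalization factors (0.856, 0.886 and 0.767), so group results are given with and without them. The leading component of the log2 CPM of all genes tested held 50.1% of their variance and had these 3 tumors, followed by control replicates 1 and 5, at its low end. Labels say nothing of culture, litter or cage, so p-values measure the spread between these tumors.

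Per length of gene, Vps16 and Vps11 were the highest members and Tgfbrap1 the lowest in every tumor. FPKM (counts scaled by gene length and library total) were used for levels, because a count also grows with length. Vps16 was the highest with 24.8 ± 2.37 FPKM (SD, n = 17; range 21.6 to 29.6), and it ranked first in 17 of 17 tumors. Vps11 ranked second in 17 of 17 tumors with 14.6 ± 1.63 FPKM, and Tgfbrap1, the CORVET counterpart of Vps39, ranked last in 17 of 17 tumors with 3.14 ± 1.03 FPKM. Levels within the core were uneven: Vps33a (8.54 ± 1.72 FPKM) and Vps18 (8.16 ± 0.585 FPKM) lay well under Vps16 and Vps11.

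Between these ends lay Vps41 (10.9 ± 1.44 FPKM), Vipas39 (9.29 ± 1.21), Vps39 (6.17 ± 1.66), Vps8 (5.11 ± 0.511) and Vps33b (4.42 ± 1.20). Neighbours in the order were compared within tumors by a two-sided exact sign-flip permutation test of the log2 FPKM difference, adjusted over 9 pairs of neighbours. Vps16 over Vps11, Vps11 over Vps41 and Vps33b over Tgfbrap1 differed in the same direction in 17 of 17 tumors (log2 differences 0.76, 0.43 and 0.50; adjusted p = 4.58e-05 each by the exact permutation test). For Vps41 over Vipas39 the log2 difference was 0.22 ± 0.19 (SD; 15 of 17 tumors; adjusted p = 0.00104, exact permutation), and for Vps18 over Vps39 it was 0.45 ± 0.41 (15 of 17 tumors; adjusted p = 0.000412, exact permutation).
Vipas39 and Vps33a (11 of 17 tumors, adjusted p = 0.116), Vps33a and Vps18 (10 of 17, adjusted p = 0.611), Vps39 and Vps8 (13 of 17, adjusted p = 0.0781), and Vps8 and Vps33b (13 of 17, adjusted p = 0.0567) did not pass the exact permutation test. Without cryoablation replicates 2, 4 and 5, Vps33a over Vps18 (adjusted p = 0.037) and Vps39 over Vps8 (adjusted p = 0.000549) did pass that exact permutation test.

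**Figure D1:**
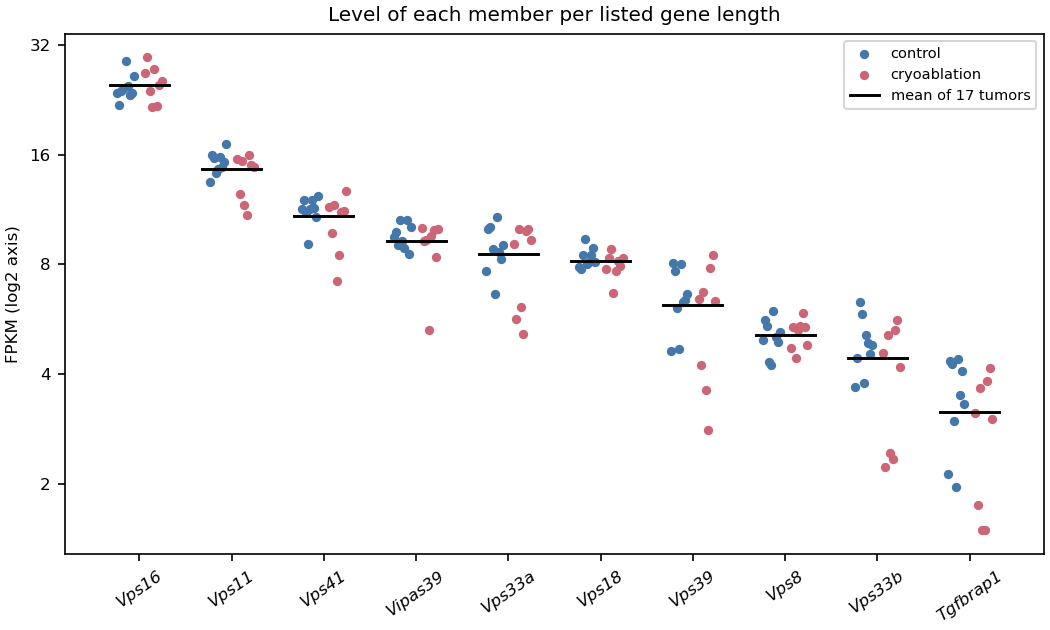
FPKM of the 10 members in each tumor on a log2 axis, with control tumors in blue, cryoablation tumors in red and a black line at the mean of 17 tumors. Vps16 was at 21.6 to 29.6 FPKM in all tumors and Tgfbrap1 was the lowest member in each of them.

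The comparison of the groups asks whether freezing a tumor on one side changed these genes in the tumor of the other side. None of the 10 members passed the study's threshold (a log2 fold change beyond 1 in either direction and an unadjusted p under 0.05), which 0.492% of the genes tested passed, and 0 of the 10 had an unadjusted p under 0.05 in edgeR's quasi-likelihood test, against 4.91% of the genes tested. Without cryoablation replicates 2, 4 and 5 the members with an unadjusted p under 0.05 were again 0 of 10, against 2.45% of the genes then tested. With Benjamini-Hochberg adjustment, edgeR called 0 of 13005 genes, as did DESeq2 and limma, while 639, 881 and 1312 genes had an unadjusted p under 0.05 in these tests. Of the members 4 had a log2 fold change above 0 and 6 one below 0, with a median of -0.03, beside a median of -0.01 over all genes tested. The 95% confidence intervals of the fold changes lay within 0.658 and 1.32 times the control level for every member, so a doubling or halving lay outside all 10 intervals. Group values below are TMM-normalized CPM, that is, CPM with each library size scaled by the trimmed mean of M values.

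Among the core subunits, Vps11, a scaffold protein with a RING domain, had 67.5, 70.7 and 80.6 CPM (lowest, median and highest) in control tumors and 65.1, 71.4 and 74.0 CPM in cryoablation tumors. The groups overlapped almost completely, and the log2 fold change of cryoablation over control was -0.03 ± 0.06 (SE). Vps16, the subunit that carries Vps33a, had 77.0, 86.4 and 117 CPM in control tumors and 75.4, 92.7 and 134 CPM in cryoablation tumors. It lay above the control median in 6 of 8 cryoablation tumors, its highest values were in cryoablation replicates 5 and 2, and the log2 fold change came to 0.15 ± 0.12 (SE; adjusted p = 0.737, edgeR). Without cryoablation replicates 2, 4 and 5 the log2 fold change of Vps16 was -0.03.

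Vps18, the other RING-domain scaffold, had 35.1, 37.8 and 43.0 CPM in control tumors and 35.9, 37.5 and 48.0 CPM in cryoablation tumors. Here too the 2 highest tumors were cryoablation replicates 5 and 2, while the rest of that group lay inside the control range, and the log2 fold change was 0.04 ± 0.08 (SE). Vps33a had 34.4, 40.4 and 48.7 CPM in control tumors and 31.6, 43.0 and 45.4 CPM in cryoablation tumors. Cryoablation replicates 2, 4 and 5 lay below every control tumor (31.6, 33.1 and 32.1 CPM), the other 5 lay between 42.0 and 45.4 CPM, and the log2 fold change over all tumors was -0.05 ± 0.10 (SE). The 4 core genes summed to 225 to 271 CPM in control tumors and 225 to 284 CPM in cryoablation tumors.

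Of the HOPS subunits, Vps39, which holds the place in HOPS that Tgfbrap1 holds in CORVET, had 42.3, 51.6 and 65.5 CPM in control tumors and 31.5, 53.4 and 69.3 CPM in cryoablation tumors. The cryoablation tumors spread on both sides of the control range, with replicates 5 and 4 below it and replicate 7 above it, and the log2 fold change was -0.09 ± 0.15 (SE). Vps41, which also serves in the transport of lysosomal membrane proteins, had 58.8, 76.1 and 82.6 CPM in control tumors and 54.6, 73.1 and 84.8 CPM in cryoablation tumors. In 6 of 8 cryoablation tumors Vps41 was under the control median, yet only replicate 4 lay below the control range, and the log2 fold change was -0.02 ± 0.09 (SE).

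For CORVET, Vps8, the subunit that ties CORVET to Rab5 membranes, had 34.2, 40.7 and 46.6 CPM in control tumors and 33.7, 43.9 and 58.4 CPM in cryoablation tumors. Cryoablation replicates 2, 4 and 5 were above every control tumor (52.2, 49.4 and 58.4 CPM), and the log2 fold change of Vps8 was 0.14 ± 0.10 (SE; adjusted p = 0.734, edgeR). Tgfbrap1, named for its binding to TGF-beta receptors, had 23.3, 35.9 and 45.4 CPM in control tumors and 18.5, 33.0 and 43.3 CPM in cryoablation tumors. In the same 3 cryoablation tumors, Tgfbrap1 was below every control tumor (22.4, 18.5 and 21.4 CPM). Its log2 fold change of -0.22 ± 0.18 (SE) was the lowest of the 10, with an adjusted p of 0.744 (edgeR), and was 0.03 without those 3 tumors.

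In CHEVI, Vps33b had 13.6, 15.7 and 19.8 CPM in control tumors and 9.04, 14.8 and 18.6 CPM in cryoablation tumors. Once more cryoablation replicates 2, 4 and 5 were the lowest tumors (9.04, 9.53 and 10.6 CPM), and the log2 fold change of Vps33b was -0.21 ± 0.15 (SE; adjusted p = 0.734, edgeR), against 0.01 without them. Vipas39 had 31.5, 38.0 and 39.9 CPM in control tumors and 23.4, 37.2 and 48.9 CPM in cryoablation tumors. Replicate 4 of the cryoablation group was the lowest and replicate 5 the highest tumor for Vipas39, and its log2 fold change was 0.01 ± 0.12 (SE).

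An exact permutation test of the log2 CPM over all 24310 splits of the tumors gave p = 0.12 or more for each member, with adjusted p = 0.741 or more over all genes tested. The member with the lowest of these exact permutation p-values was Vps33b. At an unadjusted exact permutation p under 0.05 there were 0 members, against 2.97% of the genes tested.

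**Figure D2:**
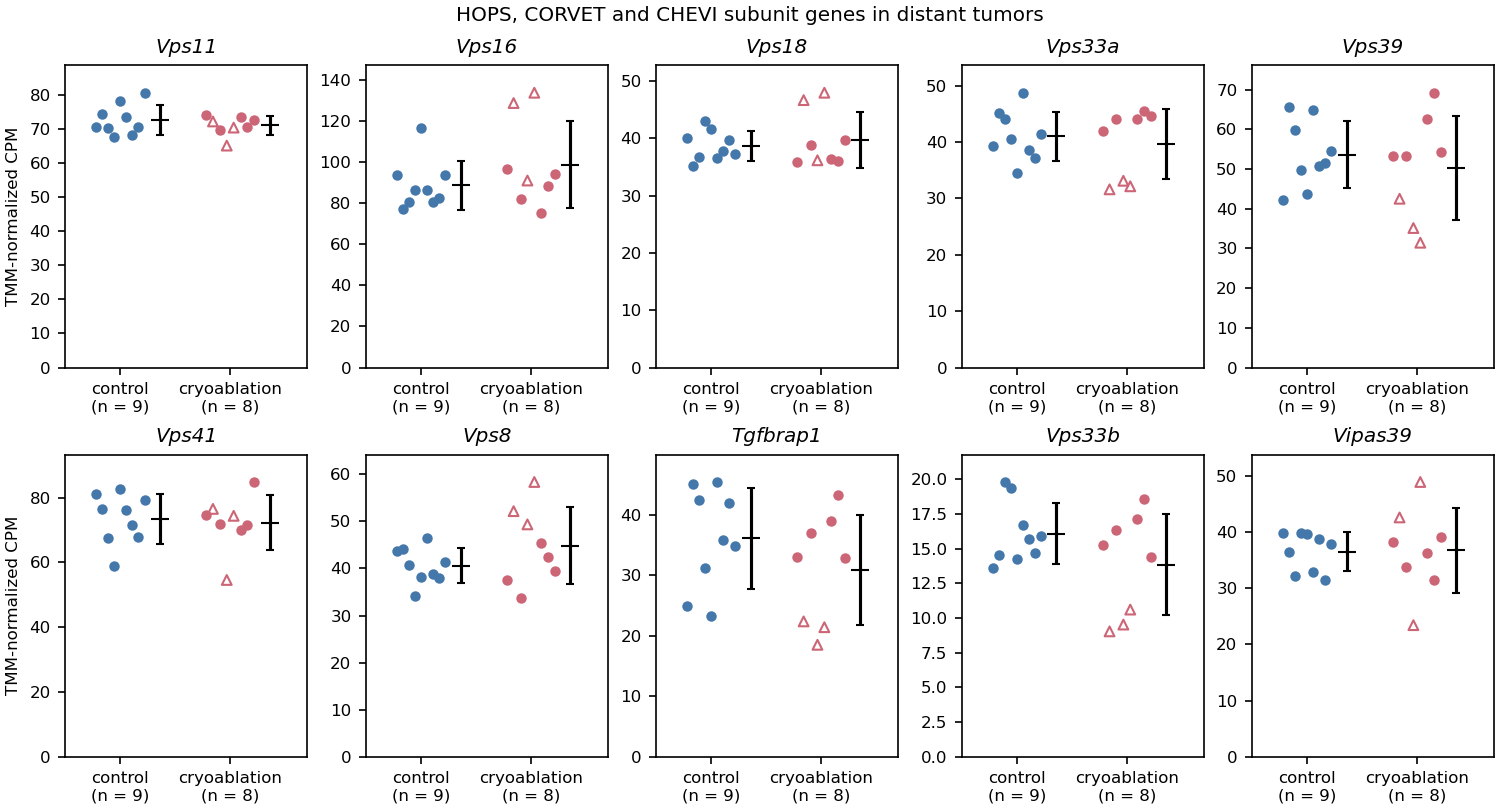
TMM-normalized CPM of each member in 9 control tumors (blue) and 8 cryoablation tumors (red), with the mean and SD of each group as black bars. Open triangles mark cryoablation replicates 2, 4 and 5, which were lowest in Vps33a and Vps33b and high in Vps8, whereas Vps11 lay between 65.1 and 80.6 CPM throughout.

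**Figure D3:**
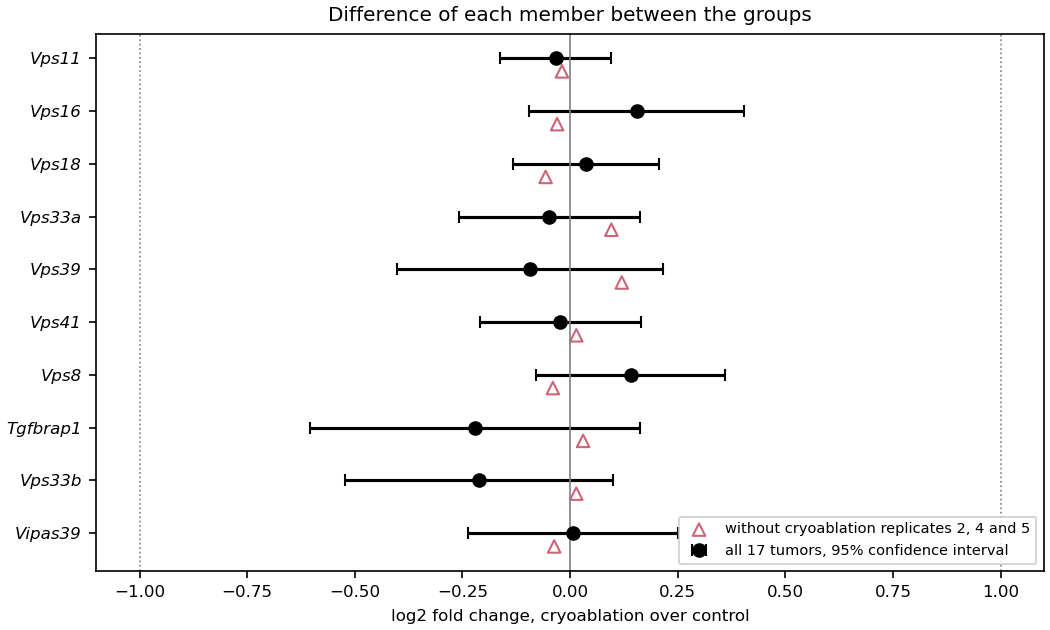
Log2 fold change of each member, cryoablation over control, with its 95% confidence interval from edgeR (black) and the value without cryoablation replicates 2, 4 and 5 (red triangles). All intervals include 0 and lie inside the dotted lines at -1 and 1.

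Within each tumor, the ratio of paralogous or competing subunits cancels the library scaling. Vps33a exceeded Vps33b in 17 of 17 tumors, by 1.51 times (control replicate 4) to 2.53 times (cryoablation replicate 2) in FPKM. The log2 ratio was 0.89 ± 0.19 (SD, n = 9) in control tumors and 1.08 ± 0.19 (SD, n = 8) in cryoablation tumors, a difference of 0.19 (exact permutation p = 0.0551, adjusted p = 0.221 over 4 ratios). Vps16 exceeded Vipas39 by 2.19 to 4.10 times, and the log2 ratio was 0.15 higher in cryoablation tumors (exact permutation adjusted p = 0.231).
Between HOPS and CORVET, Vps41 was 1.36 to 2.67 times as high as Vps8 and Vps39 was 1.57 to 2.42 times as high as Tgfbrap1, again in 17 of 17 tumors each. The log2 ratio of Vps41 to Vps8 was 0.15 lower in cryoablation tumors and that of Vps39 to Tgfbrap1 was 0.12 higher, and neither passed the exact permutation test (adjusted p = 0.247 and 0.231). In all 4 ratios the groups overlapped. Without cryoablation replicates 2, 4 and 5 the difference was 0.08 for Vps33a to Vps33b and 0.01 for Vps16 to Vipas39. For Vps41 to Vps8 it was then 0.06, and for Vps39 to Tgfbrap1 0.07.

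For each of the 10 members the log2 fold change between the groups was smaller than the SD of log2 CPM within them, and the members differed widely in that SD. Vps11 was among the steadiest genes measured: its SD within groups was 0.07 on the log2 scale, its highest tumor was 1.24 times its lowest, and 0.161% of the genes tested had a smaller SD. Of 4648 genes whose mean level lay within 2-fold of that of Vps11, 16 had a smaller SD, and their median SD was 0.29. This rests on TMM scaling: in FPKM, which carry no such factors, Vps11 ran from 10.9 to 17.1 (1.56 times), with a log2 SD of 0.17 over all tumors, against 0.10 for Vps18, 0.13 for Vps16 and 0.14 for Vps8. Vps18 (SD 0.14), Vps41 (0.17), Vps33a (0.19), Vps8 (0.20), Vipas39 (0.24) and Vps16 (0.24) followed. At the other end were Vps33b (0.31), Vps39 (0.32) and Tgfbrap1 (0.41), whose highest tumors were 2.17, 2.20 and 2.44 times their lowest. The SD of 9 members was under the median SD of all genes tested (0.35), and that of Tgfbrap1 was over it.

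Correlations across the 17 tumors were computed for all 45 pairs of members on log2 CPM after subtracting group means, with 100000 permutations within groups and adjustment over the 45 pairs. Vps39, Tgfbrap1, Vps33a and Vps33b varied together, and their 6 pairs had r from 0.77 to 0.93. The closest pair was Vps39 and Tgfbrap1, which are alternatives to each other in HOPS and CORVET (r = 0.926, rho = 0.939, permutation p = 1e-05 for both, the smallest that these permutations can give; adjusted p = 0.00045; r = 0.926 without cryoablation replicates 5 and 4, the 2 tumors farthest from the median of Vps39). Vps33a followed Vps39 nearly as closely (r = 0.890, rho = 0.880; adjusted permutation p = 0.00045; r = 0.890 without the 2 farthest tumors). In control tumors alone r was 0.917 for Vps39 and Tgfbrap1 and 0.861 for Vps33a and Vps39.

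Vps16 went the other way. Its r was -0.685 with Vps39, -0.715 with Tgfbrap1 and -0.722 with Vps33a, with rho of -0.674, -0.725 and -0.610 (adjusted permutation p = 0.0299, 0.0129 and 0.0129 for r). Without cryoablation replicates 5 and 2, the farthest from its median, these r were -0.498, -0.641 and -0.467. Vps18 paralleled Vps16 (r = 0.791, rho = 0.613, adjusted permutation p = 0.0126 for r, and r = 0.444 without the same 2 tumors), so this relation rests in good part on those tumors. With TMM factors, Vps11 and Vps41 had r between -0.07 and 0.36 with the members of both sets and were correlated with each other (r = 0.734, rho = 0.674; adjusted permutation p = 0.0126; r = 0.756 without control replicates 9 and 5), Vps41 being the 14th closest of 13004 genes to Vps11. In all, 14 of 45 pairs had an adjusted permutation p under 0.05, 9 of them positive and 5 negative, and each of the 14 had the same sign in the control tumors alone and in the cryoablation tumors alone. These relations were shared with many other genes. Among 13004 genes, Tgfbrap1 ranked 278th and Vps33b 2447th by r with Vps39. By r with Vps33a, Vps39 ranked 138th and Vps33b 1192nd, and Vps18 ranked 1441st by r with Vps16. With the leading component of all genes tested, r was 0.944 for Vps39 and for Tgfbrap1, 0.889 for Vps33a, 0.871 for Vps33b, -0.816 for Vps16 and -0.669 for Vps18.

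Ratios of raw counts need no scaling, but a wide ratio can come from either gene. In control tumors there were 1.18 (lowest), 1.60 (median) and 2.68 (highest) Vps16 counts for each Vps39 count, and in cryoablation tumors 1.20, 1.77 and 4.25. The highest ratio was that of cryoablation replicate 5 and the lowest that of control replicate 2, and the groups overlapped. By comparison, the ratio of Vps11 to Vps41 counts stayed between 0.856 and 1.19 in all tumors.
Scaling did decide the sign for Vps18: with no normalization factors its r was 0.32 with Vps33a and 0.35 with Vps39, against -0.69 and -0.67 with TMM factors and -0.73 for both with upper-quartile factors. For Vps16 the sign held with no factors (r = -0.36 with Vps39 and -0.45 with Vps33a). Its r with Vps18 was then 0.185, against 0.791 with TMM factors and 0.812 with upper-quartile factors. With no factors Vps11 varied with Vps39 (r = 0.91), Vps33a (0.88), Tgfbrap1 (0.86) and Vps33b (0.82), and Vps41 had r of 0.56 to 0.70 with the same 4 genes. Under that setting 12 of the 14 pairs had the same sign, and with upper-quartile factors 14 of 14 did.

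**Figure D4:**
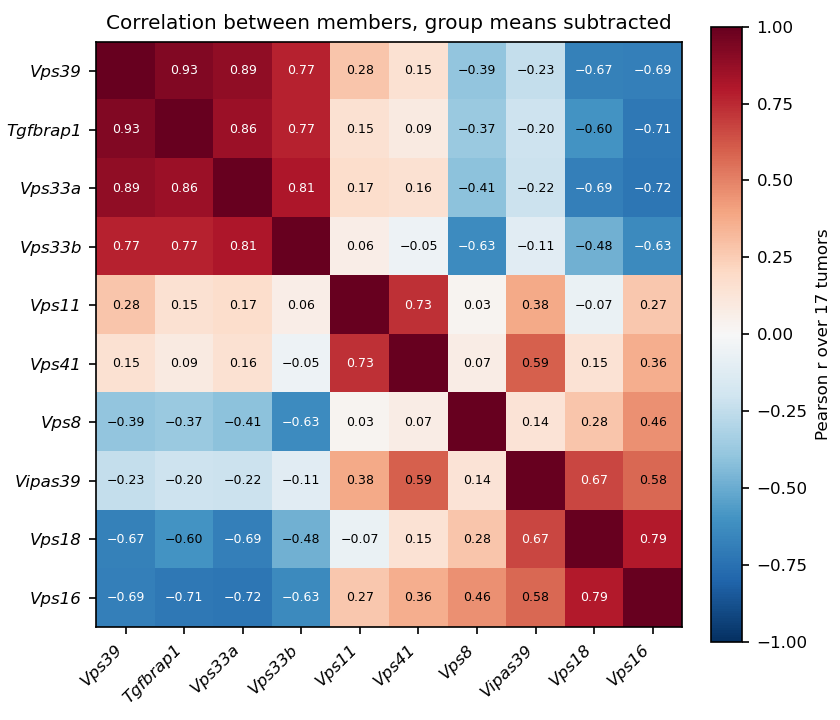
Pearson r between members over 17 tumors after subtracting group means, from -1 (blue) to 1 (red). Vps39, Tgfbrap1, Vps33a and Vps33b form a positive block, Vps16 and Vps18 are negative against it, and Vps11 pairs with Vps41, all with TMM factors.

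Each tether needs its subunits together, and 5 pairs were followed as direct partners or as the 2 subunits particular to HOPS or to CORVET. Vps16 and Vps33a, which bind each other, were inversely related (adjusted permutation p = 0.0144 for r and 0.0985 for rho over the 5 pairs). The others did not pass the test: r was -0.07 for Vps11 and Vps18, 0.15 for Vps39 and Vps41, -0.37 for Vps8 and Tgfbrap1, and -0.11 for Vps33b and Vipas39, with rho of -0.19, -0.03, -0.19 and -0.33 (adjusted permutation p = 0.782, 0.782, 0.47 and 0.782 for r, and 0.627, 0.898, 0.627 and 0.593 for rho). Left without the 2 tumors farthest from the median of the first gene, r was -0.161, -0.227, -0.101 and -0.680 for these 4 pairs, and -0.467 for Vps16 and Vps33a. Counted from the highest r with Vps16, Vps33a ranked 10937th of 13004 genes, so many other genes had a lower r with Vps16. Without cryoablation replicates 2, 4 and 5, r for Vps16 and Vps33a was -0.528 (adjusted permutation p = 0.377), and leaving out control replicate 5 (r = -0.676, adjusted permutation p = 0.093) or cryoablation replicate 5 (r = -0.654, adjusted permutation p = 0.054) alone also took it past the threshold of 0.05.

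Several tumor-wide measures moved with this pattern. In each tumor the deviation of all genes tested from their means had a trend over the gene length listed in the table, from -0.391 log2 per doubling of length in cryoablation replicate 5 to 0.231 in cryoablation replicate 7. This slope was correlated with Vps39 (r = 0.950, rho = 0.924), Tgfbrap1 (r = 0.950, rho = 0.946), Vps33a (r = 0.900, rho = 0.902) and Vps33b (r = 0.840, rho = 0.804), and inversely with Vps16 (r = -0.831, rho = -0.833) and Vps18 (r = -0.722, rho = -0.652), each with an adjusted permutation p of 0.0193 or less over the 10 members for both measures. Without cryoablation replicates 5 and 2, which had the farthest slopes, r was 0.951, 0.972, 0.836, 0.770, -0.676 and -0.423. Vps11 (r = 0.102), Vps41 (r = -0.0181), Vps8 (r = -0.475) and Vipas39 (r = -0.351) did not pass the permutation test for r (adjusted p = 0.753, 0.956, 0.167 and 0.36). By rho, Vipas39 did pass it (rho = -0.603, adjusted permutation p = 0.0304), and its r was -0.743 without cryoablation replicates 2, 4 and 5, while rho was 0.125 for Vps11, -0.184 for Vps41 and -0.319 for Vps8.

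The listed lengths were 3471 bases for Vps33b, 4790 for Vps33a, 8605 for Vps39 and 10972 for Tgfbrap1, and 3727 for Vps16 and 4786 for Vps18. An alternative added after seeing the data took out each tumor's trend over length. Then 14 of the 14 pairs had the same sign, but not the same size. For Vps39 and Tgfbrap1 r was 0.69, and for Vps18 and Vps33a it was -0.75. The r of Vps16 came to -0.54 with Vps33a, -0.27 with Vps39 and -0.42 with Tgfbrap1, against -0.722, -0.685 and -0.715 before.

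**Figure D5:**
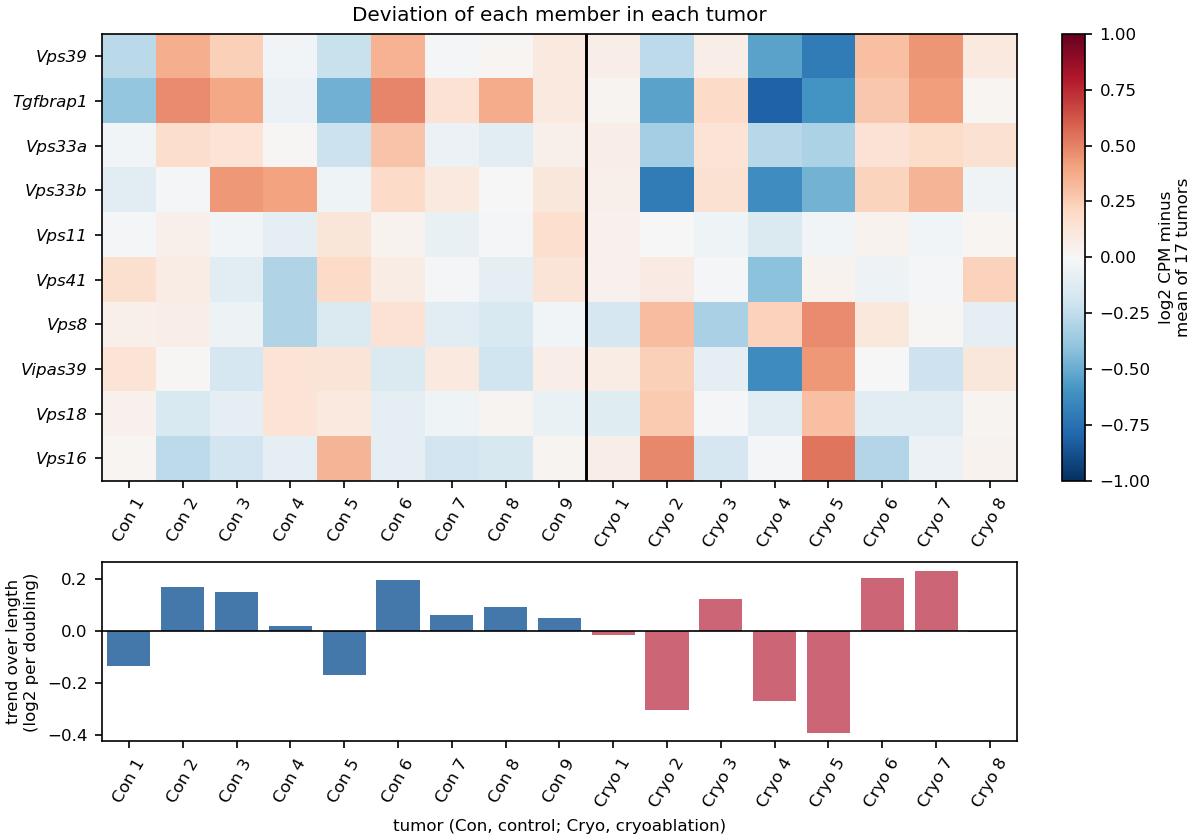
Upper panel: log2 CPM of each member minus its mean over 17 tumors, in control (Con) and cryoablation (Cryo) tumors. Lower panel: slope of all genes' deviations over gene length, in log2 per doubling, which runs from -0.391 in cryoablation replicate 5 to 0.231 in cryoablation replicate 7 and has the sign of the Vps39 and Tgfbrap1 deviations in most tumors.

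Markers of other cells moved with it as well. The summed level of 10 macrophage markers was 2070 to 5280 CPM in control tumors and 1360 to 7470 CPM in cryoablation tumors, and it was inversely correlated with Vps39 (r = -0.852, rho = -0.895, adjusted permutation p = 0.00048 over 12 marker lists; r = -0.857 without cryoablation replicates 5 and 4). The macrophage genes split, however: Lyz2 made up 51.2% of the sum, and r with Vps39 was below 0 for 8 of the 10, from -0.92 for C1qa to -0.29 for Csf1r and -0.12 for Adgre1, but 0.05 for Mrc1 and 0.64 for Mertk. Inverse correlations with Vps39 were also found for the 7 erythroid markers in the table (r = -0.854, rho = -0.895; 6.16 to 74.7 CPM in control and 25.1 to 175 CPM in cryoablation tumors; Slc4a1 at 3 counts or fewer in all tumors), 7 platelet markers (r = -0.810, rho = -0.824; 37.4 to 152 and 43.7 to 139 CPM in that order; Pf4 81.0% of the sum, 3 of the 7 tested, Gp9 and Gp1bb at 3 counts or fewer), the 8 epidermis markers (r = -0.851, rho = -0.755; 182 to 444 and 205 to 664 CPM; Krt14 98.6% of the sum, 3 of the 8 tested, Lor and Dsg1a at 3 counts or fewer and Flg at 0) and the MC38 and epithelial markers (r = -0.792, rho = -0.801), each with an adjusted permutation p of 0.00211 or less. Left without the same 2 tumors, these r were -0.872, -0.683, -0.750 and -0.639. Of the genes tested, r with Vps39 was below 0 for 4 of 4 erythroid, 2 of 3 platelet, 3 of 3 epidermis and 5 of 6 MC38 and epithelial markers. The 2 above 0 were Gp1ba (0.32) of the platelet list and Cdh1 (0.14, 24.4% of the MC38 and epithelial sum). Hba-a1 and Hbb-bs made up 32.2% and 57.9% of the erythroid sum, and Alas2 had r of -0.08. Lists of T cell, B cell, neutrophil, fibroblast, endothelial, muscle and adipocyte markers did not pass this permutation test (r from -0.599 to 0.283). Single genes in them could still vary with Vps39. Of the endothelial genes 4 were below and 4 above 0, from -0.86 (Egfl7) to 0.67 (Kdr). Fibroblast genes were 6 below and 4 above, from -0.61 (Thy1) to 0.85 (Pdgfra). All 7 adipocyte genes tested were below 0 (adjusted permutation p = 0.053 for the list). The part of these cells and of library scaling in the members' pattern was not tested, and in bulk tumors fewer cells of a type and less RNA per cell cannot be told apart.

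For each member, the gene most like it across the 17 tumors was sought among all genes tested, by r after subtracting group means. Tgfbrap1 was closest to Micall1 (r = 0.976), Vps39 to Mysm1 (0.972), Vps33a to Usp22 (0.955) and Vps33b to Nfkb1 (0.942). Vps16 was closest to Smarcb1 (r = 0.950), Vps18 to Coq8b (0.933) and Vps41 to Zfp324 (0.929), whereas the best matches were weaker for Vipas39 (Agpat1, 0.896), Vps8 (Atpsckmt, 0.861) and Vps11 (Sstr2, 0.833). No member was the closest gene of another member.

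Around the tethers, 90 genes in 8 lists were followed. The first lists held Rab GTPases of endosomes with their regulators and effectors, HOPS adaptors, SNAREs of these fusions and other Sec1/Munc18 proteins. The further lists held the GARP and EARP tethers, the exocyst tether, retromer and the MiT/TFE factors. The table listed 89 of the 90 genes (Vamp7 was not analysed here). Of the 87 tested, 0 passed the study's threshold and 1 had an unadjusted p under 0.05 (1.15%, against 4.91% of all genes tested), and 36 lay above 0 and 51 below 0. That gene was Snap29, the SNARE through which autophagosomes fuse with lysosomes, with 28.8 ± 2.62 CPM (SD, n = 9) in control tumors and 23.9 ± 5.55 CPM (SD, n = 8) in cryoablation tumors. Its log2 fold change was -0.27 ± 0.12 (SE; adjusted p = 0.728, edgeR; unadjusted p from 0.0096 to 0.0914 without 1 tumor at a time), and -0.08 without cryoablation replicates 2, 4 and 5.

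The medians of the 8 lists lay between -0.10 (17 Rab GTPases, regulators and effectors) and 0.05 (6 Sec1/Munc18 proteins), beside -0.01 for all genes tested. The Rab median was 0.02 without cryoablation replicates 2, 4 and 5 and -0.17 with no normalization factors. Among the Rabs, the early endosomal Rab5a had the lowest log2 fold change (-0.31 ± 0.30, SE) and the late endosomal Rab7 the highest (0.08 ± 0.11, SE). Within the SNAREs the highest was Vamp8, which acts in endosome and autophagosome fusion and in granule release (0.72 ± 0.37, SE; adjusted p = 0.728, edgeR), and the 16 tested had a median of 0.00. The ends were Uvrag (-0.19) and Borcs6 (0.41) for the adaptors, Stxbp3 (-0.10) and Stxbp2 (0.26) for the Sec1/Munc18 proteins, and Vps51 (-0.21) and Vps53 (0.20) for GARP and EARP. The exocyst ran from Exoc2 (-0.10) to Exoc6b (0.14), retromer from Vps35 (-0.15) to Snx5 (0.03), and the MiT/TFE list from the folliculin gene Flcn (-0.20) to Mcoln1 (0.05), the lysosomal calcium channel gene. None of these values passed adjustment.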

How the data were processed

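RNA of 17 distant MC38 tumors (9 control, 8 cryoablation) was compared, with groups taken from the sample labels. The authors deposited raw read counts per gene and FPKM, and each FPKM value equalled the count scaled by gene length and library total. 0 columns lacked a labelled sample. Per the labels RNA was extracted from frozen tumors, and the study's methods give bead selection of mRNA and NovaSeq sequencing. The aligner, counting program and strandedness are not given in the sources used here. The submitters' processing notes name GRCm38 (mm10).

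Counts were tested with edgeR 4.0.16 (TMM, filterByExpr by group, quasi-likelihood F test, R 4.3.3) over 13005 genes with Benjamini-Hochberg adjustment, and single genes also by exact permutation of log2 CPM (prior count 2). Levels used log2(FPKM + 0.1). The text names the members and the closest gene of each member. Of each related list it names every gene with an unadjusted p under 0.05 and those with the highest and lowest log2 fold change. Some marker genes are named to show what a list's sum was made of or how its genes split. The members and the gene lists were chosen with earlier results of these data known. On simulated counts of 12920 genes, edgeR recovered 97.9% of 195 genes changed by a log2 fold change of 2. Changes of that size are far larger than those of the members, so this gives no power for changes as small as theirs. Alternatives were DESeq2 1.42.0, limma 3.58.1 (voom with quality weights), other scalings and filters, length offsets, a replicate block and leaving out tumors. Depth of 13524899 to 17898672 counts per tumor put the members at 105 counts or more. 1 marker gene is not reported here, and its list was used without it.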

Additional observations from a re-analysis of the deposited data

Results flagged for a closer look

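Lone tumors were sought in each group for the 10 members and the 4 ratios, 28 groups of values in all, by the gap to the nearest tumor as a share of the group's range. Chance flags about 1 in 20 such groups, and 2 were flagged. Vps16 was at 117 CPM in control replicate 5, against 77.0 to 93.9 CPM in the other control tumors (gap over range 0.525). Vps41 was at 54.6 CPM in cryoablation replicate 4, against 69.9 to 84.8 CPM in the other cryoablation tumors (gap over range 0.559).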

How the results depend on the processing

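The count of members called was 0 by edgeR, DESeq2 and limma, under each scaling and filter and without any single tumor, at the study's threshold, at an unadjusted p under 0.05 and after adjustment. Log2 fold changes of members changed sign in places, and those of 9 of 10 did so without cryoablation replicates 2, 4 and 5, an alternative chosen after seeing the data, where they were -0.030 for Vps16, -0.057 for Vps18, 0.096 for Vps33a, 0.12 for Vps39, 0.014 for Vps41, -0.04 for Vps8, 0.030 for Tgfbrap1, 0.014 for Vps33b and -0.037 for Vipas39. With limma's voom and quality weights they were -0.0009 for Vps18, 0.069 for Vps33a, 0.065 for Vps41 and -0.016 for Vps8, and with length offsets 0.025 for Vps11, 0.0013 for Vps33a and 0.065 for Vps41. With no normalization factors they were -0.067 for Vps18 and -0.094 for Vipas39. Vipas39 was at -0.013 with upper-quartile factors and -0.0073 with no filter. Leaving out 1 tumor at a time gave -0.0062 to 0.055 for Vps18, -0.064 to 0.027 for Vps41 and -0.062 to 0.080 for Vipas39.

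Replicate numbers are shared by the groups, but 4 of 8 pairs of same-numbered tumors had deviations correlated above 0.1 (range -0.51 to 0.64), and 2 of 8 tumors in each group were closest to their own number, so the numbers were not taken to pair the tumors. The replicate block gave -0.0053 for Vipas39, left the members called at 0 and gave 2 related genes with an unadjusted p under 0.05.

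That count of related genes, 1 in edgeR, was 3 with DESeq2, 7 with limma, 2 with upper-quartile factors, 0 with no factors, 0 without cryoablation replicates 2, 4 and 5, and 0 to 8 without 1 tumor. Over all genes tested, 64 passed the study's threshold in edgeR, against 432 with no filter, 33 with the replicate block and 39 with length offsets, and 639 had an unadjusted p under 0.05, against 1312 with limma, 992 with no filter and 325 without the 3 cryoablation tumors. In the order of levels, the log2 difference of Vps39 over Vps8 passed in control tumors alone (0.33) and without the 3 cryoablation tumors (0.39), and ranged over 0.19 to 0.29 without 1 tumor. Vps33a over Vps18 was -0.0099 in cryoablation tumors alone and 0.13, past the test, without the 3. Vps8 over Vps33b ranged over 0.20 to 0.30 without 1 tumor, and passed without control replicate 3 or 4 or cryoablation replicate 3, as Vps39 over Vps8 did without cryoablation replicate 4 or 5.

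Among partner pairs, r of Vps16 and Vps33a no longer passed with no factors (-0.45), with the length trend removed (-0.54) or without the 3 tumors (-0.53), and ranged over -0.81 to -0.65 without 1 tumor. For Vps11 and Vps18 r was 0.012 with variance-stabilized values, 0.48 with the length trend removed, 0.34 with no factors, 0.040 with upper-quartile factors and -0.21 to 0.059 without 1 tumor. For Vps39 and Vps41 r was -0.044 with the length trend removed, -0.22 without the 3, -0.16 to 0.24 without 1 tumor, and 0.70 with no factors, where it passed. For Vps8 and Tgfbrap1 r was 0.24 with no factors and 0.34 without the 3, and for Vps33b and Vipas39 0.35 with no factors and -0.67 to 0.049 without 1 tumor. The group difference of the Vps41 to Vps8 log2 ratio was 0.060 without the 3. Without 1 tumor that of Vps33a to Vps33b ranged over 0.16 to 0.23 (exact permutation p under 0.05 without control replicate 1, 2 or 6 or cryoablation replicate 6 or 7, unadjusted) and that of Vps39 to Tgfbrap1 over 0.083 to 0.16 (under 0.05 without control replicate 5). Vps33b and Vipas39 passed without cryoablation replicate 4. The cause of these shifts was not tested. Of 1048 alternative values, 943 kept their direction and side of the threshold or, for medians of lists, stayed within 1 SD. The precision is limited by 17 tumors and by their spread.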
